A study of Mus musculus with 22 samples.

Results

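The cell cycle and proliferation genes examined here were 45 genes chosen by name: 20 that serve DNA replication and 25 that serve mitosis. A member was read where the gene name in the scanner files equalled its symbol, from the brightest probe of that name. This gave 43 of the 27962 gene names on the array, 19 of the replication genes and 24 of the mitosis genes. Gins2, a subunit of the replication helicase, and Cdk1, the kinase that drives entry into mitosis, were listed only under older names and entered 1 alternative. The 43 genes passed the filter on dim probes in every fit, and all but Ttk were well above background on all 22 arrays (Ttk on 17).

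The study profiled total RNA from the gut of male C57BL/6 mice on chow, with 1-colour Agilent whole mouse genome arrays. Its 6 groups were aged colon iKO (n = 4), aged colon flox (n = 3), aged ileum iKO (n = 4), aged ileum flox (n = 3), young ileum iKO (n = 4) and young ileum flox (n = 4). Aged mice were 24 months old and young mice 6 to 8 weeks old. Controls are labelled flox and mutants SIRT1 iKO. The labels do not spell out iKO, and give neither the deleted part of Sirt1 nor what drives the deletion. The labels do not say that arrays of a group came from separate mice, nor that a mouse gave both tissues, so p-values measure the spread between these samples, which may be technical.

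In the gut epithelium, cells divide in the crypts and stop dividing as they move towards the lumen. Replication genes, many of them targets of E2F transcription factors, are transcribed around the start of S phase: they load the MCM helicase on origins, supply deoxynucleotides and copy the DNA. Mitosis genes, many of them controlled through CHR and CCAAT elements by the DREAM, MuvB and FOXM1 complexes, peak later and build the spindle, attach chromosomes and drive anaphase. In whole tissue, fewer dividing cells and less of these RNAs per cell cannot be told apart.

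The promoters of 6 members are printed because those genes had the smallest p-values of their class in aged ileum among genes with an entry in the sequence table, and because the classes differed in the motifs of their promoters. Each window runs from 250 bases before the annotated start to 50 bases after it, 5′ to 3′ on the strand of the gene, from RefSeq on GRCm38.p6. Capitals mark matches on either strand to an E2F motif (TTTCCCGC, TTTCGCGC, TTTGCCGC or TTTGGCGC), a CHR motif (TTTGAA or TTTAAA) or a CCAAT box (CCAAT, or ATTGG on the other strand). Tk1, thymidine kinase, lies at chr11:117825965-117826264 (minus strand). Rrm2 and Rrm1, the subunits of ribonucleotide reductase, lie at chr12:24708004-24708303 and chr7:102441445-102441744 (both plus strand). Nek2, a kinase of the centrosome, lies at chr1:191821223-191821522 (plus strand). Bub1b, which encodes the checkpoint protein BubR1, lies at chr2:118597961-118598260 (plus strand), and Mki67, the gene of the proliferation antigen Ki-67, at chr7:135716330-135716629 (minus strand).
Tk1: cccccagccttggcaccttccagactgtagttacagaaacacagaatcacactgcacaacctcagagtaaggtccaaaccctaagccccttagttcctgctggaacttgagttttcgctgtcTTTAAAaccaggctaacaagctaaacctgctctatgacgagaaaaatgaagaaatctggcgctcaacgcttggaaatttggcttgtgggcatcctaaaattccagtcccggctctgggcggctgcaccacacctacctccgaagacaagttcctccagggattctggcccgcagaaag
Rrm2: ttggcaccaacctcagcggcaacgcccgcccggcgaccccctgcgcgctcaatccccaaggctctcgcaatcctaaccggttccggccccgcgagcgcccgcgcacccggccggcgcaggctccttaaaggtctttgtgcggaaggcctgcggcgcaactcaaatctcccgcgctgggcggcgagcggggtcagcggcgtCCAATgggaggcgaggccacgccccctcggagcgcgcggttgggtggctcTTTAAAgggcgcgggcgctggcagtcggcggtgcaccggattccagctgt
Rrm1: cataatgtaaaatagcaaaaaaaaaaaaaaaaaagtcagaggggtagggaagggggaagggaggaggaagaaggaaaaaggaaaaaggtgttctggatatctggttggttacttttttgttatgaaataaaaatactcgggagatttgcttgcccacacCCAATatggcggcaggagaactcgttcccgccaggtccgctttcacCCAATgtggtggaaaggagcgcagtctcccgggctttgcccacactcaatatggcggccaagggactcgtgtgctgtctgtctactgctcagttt
Nek2: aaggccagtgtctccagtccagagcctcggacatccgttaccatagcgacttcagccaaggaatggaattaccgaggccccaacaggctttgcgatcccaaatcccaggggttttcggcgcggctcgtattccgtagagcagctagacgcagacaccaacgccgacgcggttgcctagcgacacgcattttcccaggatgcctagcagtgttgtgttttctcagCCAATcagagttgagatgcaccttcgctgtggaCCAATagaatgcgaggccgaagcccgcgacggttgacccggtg
Bub1b: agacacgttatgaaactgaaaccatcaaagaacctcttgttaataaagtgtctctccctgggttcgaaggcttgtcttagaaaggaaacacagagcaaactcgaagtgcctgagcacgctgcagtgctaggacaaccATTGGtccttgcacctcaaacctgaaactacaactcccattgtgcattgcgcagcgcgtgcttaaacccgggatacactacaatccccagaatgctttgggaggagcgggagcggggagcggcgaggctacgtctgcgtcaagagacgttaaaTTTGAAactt
Mki67: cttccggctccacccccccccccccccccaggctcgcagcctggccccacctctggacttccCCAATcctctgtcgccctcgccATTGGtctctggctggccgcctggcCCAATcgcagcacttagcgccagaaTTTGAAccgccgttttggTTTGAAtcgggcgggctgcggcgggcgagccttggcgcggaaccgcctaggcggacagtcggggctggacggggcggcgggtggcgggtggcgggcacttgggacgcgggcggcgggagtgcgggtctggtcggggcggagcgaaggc

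None of these 6 windows held an E2F motif as spelled out above. The Mki67 window held 2 CHR and 3 CCAAT matches, the Nek2 window 2 CCAAT matches and no CHR match, and the Bub1b window 1 of each. The Tk1 and Rrm2 windows held 1 CHR match each, of the form TTTAAA, which reads the same on both strands.

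The table held a promoter for 37 of the 45 members, 18 replication and 19 mitosis genes, and the first window listed for a gene was used. An E2F motif stood in 7 of the 18 replication promoters (38.9%), among them Mcm3, Mcm5, Mcm6 and Mcm7, and in 1 of the 19 mitosis promoters (5.3%, Cdk1). Of the first windows of all 27025 genes, 2.3% held one. A CHR motif stood in 16 mitosis promoters (84.2%) and 6 replication promoters (33.3%), against 27.8% of all genes. A CCAAT box stood in 17 mitosis promoters (89.5%) and 10 replication promoters (55.6%), against 37.9% of all genes. These are matches of letters in a window, not measured binding sites, and a window without a match says only that those letters are not in it. Matches were allowed to overlap.

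Levels are given as log2 signal relative to the 75th percentile of the array, and differences as log2 differences of such levels with the standard error (SE) of the limma fit. A gene counts as called where its p, adjusted by the method of Benjamini and Hochberg over all genes tested, was under 0.05. The 75th-percentile signal of an array was 1425 to 1751 on colon arrays, 1132 to 1231 on aged ileum arrays and 918 to 1115 on young ileum arrays. It thus differed without overlap between the ages as well as between the tissues. Sirt1 averaged 0.32 ± 0.04 in aged ileum iKO against 0.82 ± 0.25 in aged ileum flox, 0.50 ± 0.15 in aged colon iKO against 0.78 ± 0.02 in aged colon flox, and 0.70 ± 0.04 in young ileum iKO against 0.92 ± 0.24 in young ileum flox (SD). Its differences were not called (adjusted p by limma = 0.177, 0.628 and 0.999), and whether its probe lies in the deleted part is not given in the sources used here. Tissue was checked against markers. Hoxb13, a factor of the hindgut, was at least 240-fold higher and Fabp6, the ileal bile acid binding protein, was lower by a log2 difference of -7.66 ± 0.38 in colon flox against ileum flox (adjusted p by limma = 8.13e-08 and 1.32e-07). That bound is the mean of the colon arrays against the lowest signal well above background on each ileum array, where Hoxb13 was not well above background.

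A pair of aged ileum arrays, iKO 2 and flox 1, stood apart in colon identity markers. The summed linear signal of the 8 markers was 292 on ileum iKO 2 and 405 on ileum flox 1, against 8.71 to 22.4 on the other 13 ileum arrays and 505 to 777 on the colon arrays. Most of it came from Car1, a carbonic anhydrase (7.79 on ileum iKO 2 and 8.18 on ileum flox 1 on the log2 scale, colon arrays 8.17 to 8.74), and Aqp8, a water channel (5.57 and 6.55, colon arrays 6.27 to 8.09). On ileum flox 1 both genes lay within the colon range, and on ileum iKO 2 below it. Both arrays kept the ileal Fabp6 (3.6 and 3.2, colon arrays -4.89 to -2.55), and Hoxb13 was not well above background on either. Their summed enterocyte signal was the lowest of the ileum (970 and 952, others 1160 to 1650), as was that of ileum identity markers (71.2 and 74.1, others 94.6 to 174). Results on aged ileum are therefore also given without both arrays, a choice made after seeing the data. What set these arrays apart was not tested.

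The members shared high and low arrays within groups. Aged ileum iKO 2 was the highest of its group for 42 of the 43 members and aged ileum flox 1 the highest of its group for 31; these are the arrays high in colon identity markers. Aged ileum flox 3 was the lowest of its group for 36. Young ileum flox 2 was the highest of its group for 39 members and young ileum iKO 1 the lowest for 35. In the colon, flox 4 was the lowest flox array for 43 of 43 members and iKO 3 the lowest iKO array for 42, and these arrays shared a slide. Colon flox 1 was the highest flox array for 42 members.

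The spread of the members within a group was wider than that of all genes in the colon. The median SD within a group was 0.35 for replication and 0.38 for mitosis members in colon iKO, against 0.18 for all genes tested, and 0.54 and 0.51 in colon flox, against 0.22 for all genes. In aged ileum iKO it was 0.17 for replication and 0.28 for mitosis members (all genes 0.16), and in aged ileum flox 0.16 and 0.15 (all genes 0.16). In young ileum iKO it was 0.30 and 0.17 (all genes 0.21), and in young ileum flox 0.18 and 0.21 (all genes 0.18).

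**Figure D1:**
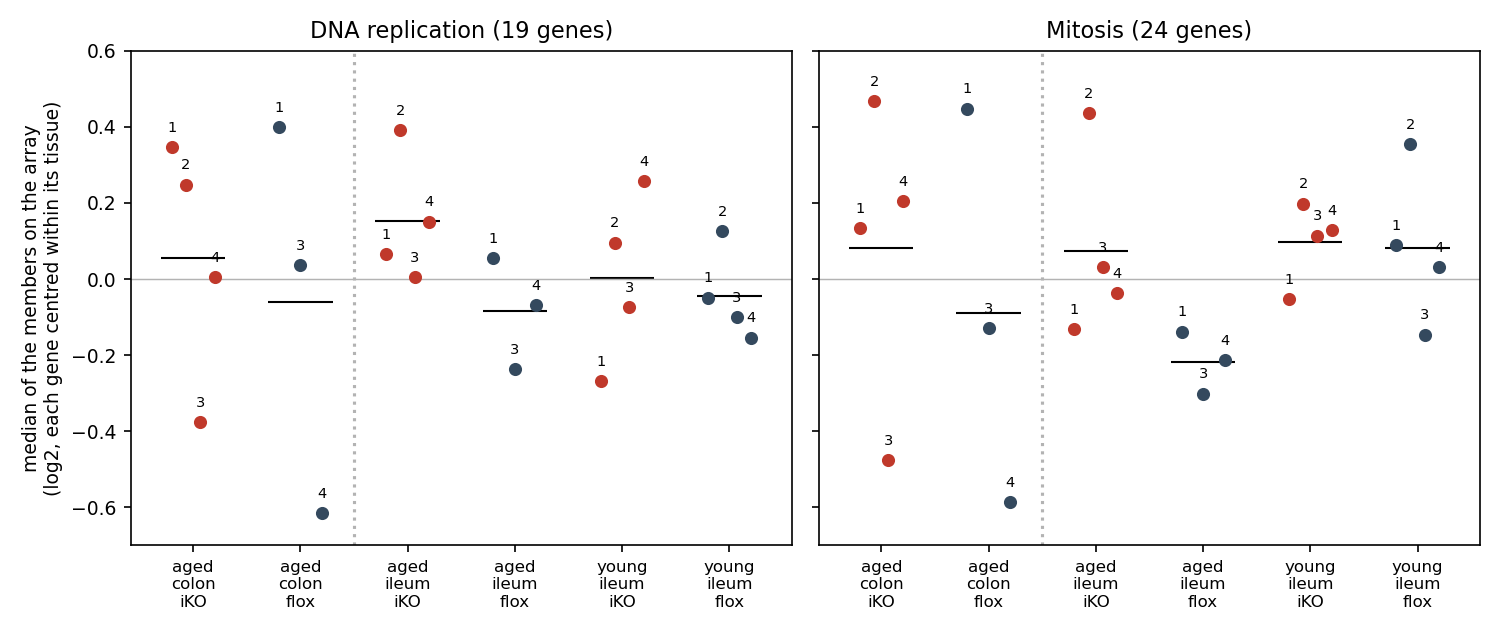
Median over the members on each array, with each gene centred on the mean of its group means within the tissue (log2, vertical axis), for the replication genes at left and the mitosis genes at right. Numbers are the replicates of the labels, red points iKO, dark points flox and lines group means. Aged ileum iKO 2 stands at 0.39 and 0.44, the highest ileum value in both panels, and colon iKO 3 and flox 4 stand below all other colon arrays.

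The first comparison asked whether the genes differed between iKO and flox ileum in aged mice. Nearly all of them leaned the same way: 42 of 43 members had a positive log2 difference, all 19 replication genes (median 0.25) and 23 of 24 mitosis genes (median 0.31), against 53.4% of all genes tested. None of the 43 was called by limma, 8 had an unadjusted p under 0.05, and 0.167% of all genes tested were called. The smallest adjusted p among the members was 0.234, for Nek2. The exception in direction was Ttk, a kinase of the spindle checkpoint, at -0.12 ± 0.21 and well above background on 2 of 4 aged iKO arrays.

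Nek2 levels on the array scale were 0.14, 0.83, 0.53 and 0.30 in aged ileum iKO, against 0.20, -0.38 and -0.20 in aged ileum flox. The groups overlapped by the lowest iKO and the highest flox array, and the log2 difference was 0.58 ± 0.18 (1.49-fold; adjusted p by limma = 0.234). Tk1 levels were 2.14, 2.58, 2.36 and 2.25 in aged ileum iKO, against 2.12, 1.83 and 2.05 in aged ileum flox. Those groups did not overlap, though iKO 1 and flox 1 were close, and the difference was 0.33 ± 0.12 (1.26-fold; adjusted p by limma = 0.311).

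Bub1b had the largest log2 difference of the members, 0.69 ± 0.28 (adjusted p by limma = 0.355). Its levels were -0.23, 0.17, -0.03 and -0.28 in aged ileum iKO, against -0.23, -0.41 and -1.70 in aged ileum flox. Flox 4 was the lowest of the 7 arrays by over 1 log2 unit, and without it the difference was 0.23 (adjusted p by limma = 0.765). Mki67 levels were 3.81, 4.48, 4.10 and 4.04 in aged ileum iKO, against 3.85, 3.62 and 3.73 in aged ileum flox, a log2 difference of 0.37 ± 0.15 (adjusted p by limma = 0.355).

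By role, the 6 MCM subunits of the replicative helicase differed by 0.08 to 0.26 on the log2 scale. The licensing factors Cdc6 and Cdt1, which load the helicase, differed by 0.37 ± 0.19 and 0.12 ± 0.13. The genes of deoxynucleotide supply (Rrm1, Rrm2, Tyms and Tk1) differed by 0.14 to 0.54, with Rrm2 at the top. Those of the fork (Pcna, the sliding clamp; Rfc4, of its loader; Fen1, the flap nuclease; Prim1 and Pola1, of the primase and polymerase alpha) differed by 0.09 to 0.29. The S-phase regulators E2f1 and Ccne1, which encode a transcription factor and cyclin E1, differed by 0.31 ± 0.16 and 0.37 ± 0.19.

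Among mitosis genes, the 8 cyclins, kinases and the phosphatase Cdc25c differed by 0.18 to 0.58 in aged ileum, iKO against flox. The spindle motors and microtubule factors Kif11, Kif20a, Kif23 and Tpx2 differed by 0.24 to 0.38. Cenpa, the histone that marks the centromere, Cenpe, a kinetochore motor, and Birc5, which encodes the passenger protein survivin, differed by 0.46 ± 0.19, 0.17 ± 0.16 and 0.33 ± 0.16. Cdc20 and Ube2c, which act with the anaphase-promoting complex, differed by 0.25 ± 0.17 and 0.33 ± 0.17. The spindle checkpoint genes Bub1, Bub1b, Mad2l1 and Ttk ran from -0.12 to 0.69, and Foxm1, Top2a and Mki67 from 0.20 to 0.37.

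The groups did not overlap for 6 members, each higher in aged ileum iKO: Tk1, Mcm7, Ccnb1, Kif20a, Kif23 and Aurkb. Of all genes tested 8.35% were higher without overlap. The members shared their movement from array to array, so these 6 are not independent of each other. Positions on the slide were uneven: 3, 3 and 4 for aged ileum flox, and 3, 4, 4 and 4 for aged ileum iKO. Fitted to the aged ileum arrays alone, limma called 13 of 15251 genes, and 5 with position as a term. Only 1 slide held both genotypes of aged ileum, iKO 2 beside flox 3, the array highest and the array lowest in most members. On it all 43 members were higher in iKO, by medians of 0.62 (replication) and 0.84 (mitosis), with 54.3% of all genes positive. Without iKO 2 the medians over the groups were 0.16 and 0.18, and without flox 3 they were 0.16 and 0.22. Without iKO 2 and flox 1, the arrays high in colon identity markers, they were 0.24 and 0.23, with 42 of 43 members positive and none called by limma.

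Related genes outside the 45 leaned the same way in aged ileum. They were read on the same arrays, so they are not independent of the members. Of 35 other replication genes 32 had a positive log2 difference (median 0.17) and of 42 other mitosis genes 40 (median 0.27), and none of either list was called by limma (8 and 9 with an unadjusted p under 0.05). The smallest p-values were those of Rfc5, of the clamp loader (0.30 ± 0.09), Gins1, of the helicase (0.46 ± 0.15), and Cdca5, which encodes sororin, a factor of sister chromatid cohesion (0.35 ± 0.11), with adjusted p by limma of 0.244, 0.257 and 0.244. Of 31 genes of cell cycle entry and its brakes 16 were positive (median 0.05). The smallest p-values there, not called, were those of Mycn (-1.45 ± 0.38), E2f8, an E2F that represses transcription (0.58 ± 0.16), and Rbl2, the pocket protein p130 (-0.64 ± 0.21). Without the arrays high in colon identity markers Rbl2 was called lower in iKO, the 1 call of that list, where 42 of 15858 genes tested were called.

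Markers of other cells moved with the same comparison. Of 13 crypt stem cell markers 10 were lower (median -0.07), none called, with Olfm4 at -1.23 ± 0.27 (adjusted p by limma = 0.123). All 10 fibroblast and matrix markers tested had negative differences (median -0.50; 1 called, Col6a2 at -0.81 ± 0.12, adjusted p by limma = 0.0112), as had all 9 smooth muscle markers (median -0.28, none called). The call of Col6a2 was lost without the arrays high in colon identity markers (-0.69, adjusted p by limma = 0.0971), and Olfm4 was then called. T cell markers were positive for 6 of 7 (median 0.32), genes listed as Paneth cell markers for 4 of 5 (0.31) and germinal centre markers for 4 of 5 (0.22), none called. B and plasma cell markers stood high on aged ileum iKO 1 and 4 (median 2.09 and 2.17 above the ileum mean on the log2 scale). They stood at -0.31 on iKO 2 and -1.20 on iKO 3, and at -0.75 to 0.29 in aged ileum flox. Their summed linear signal ran from 61.9 to 144 in aged ileum iKO against 76.3 to 150 in aged ileum flox, and Cr2 and Pax5 were not well above background on any aged flox array. Without the 3 ileum arrays highest in these markers the member medians were 0.28 (replication) and 0.48 (mitosis). The part of any of these cells in the member differences was not tested.

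**Figure D2:**
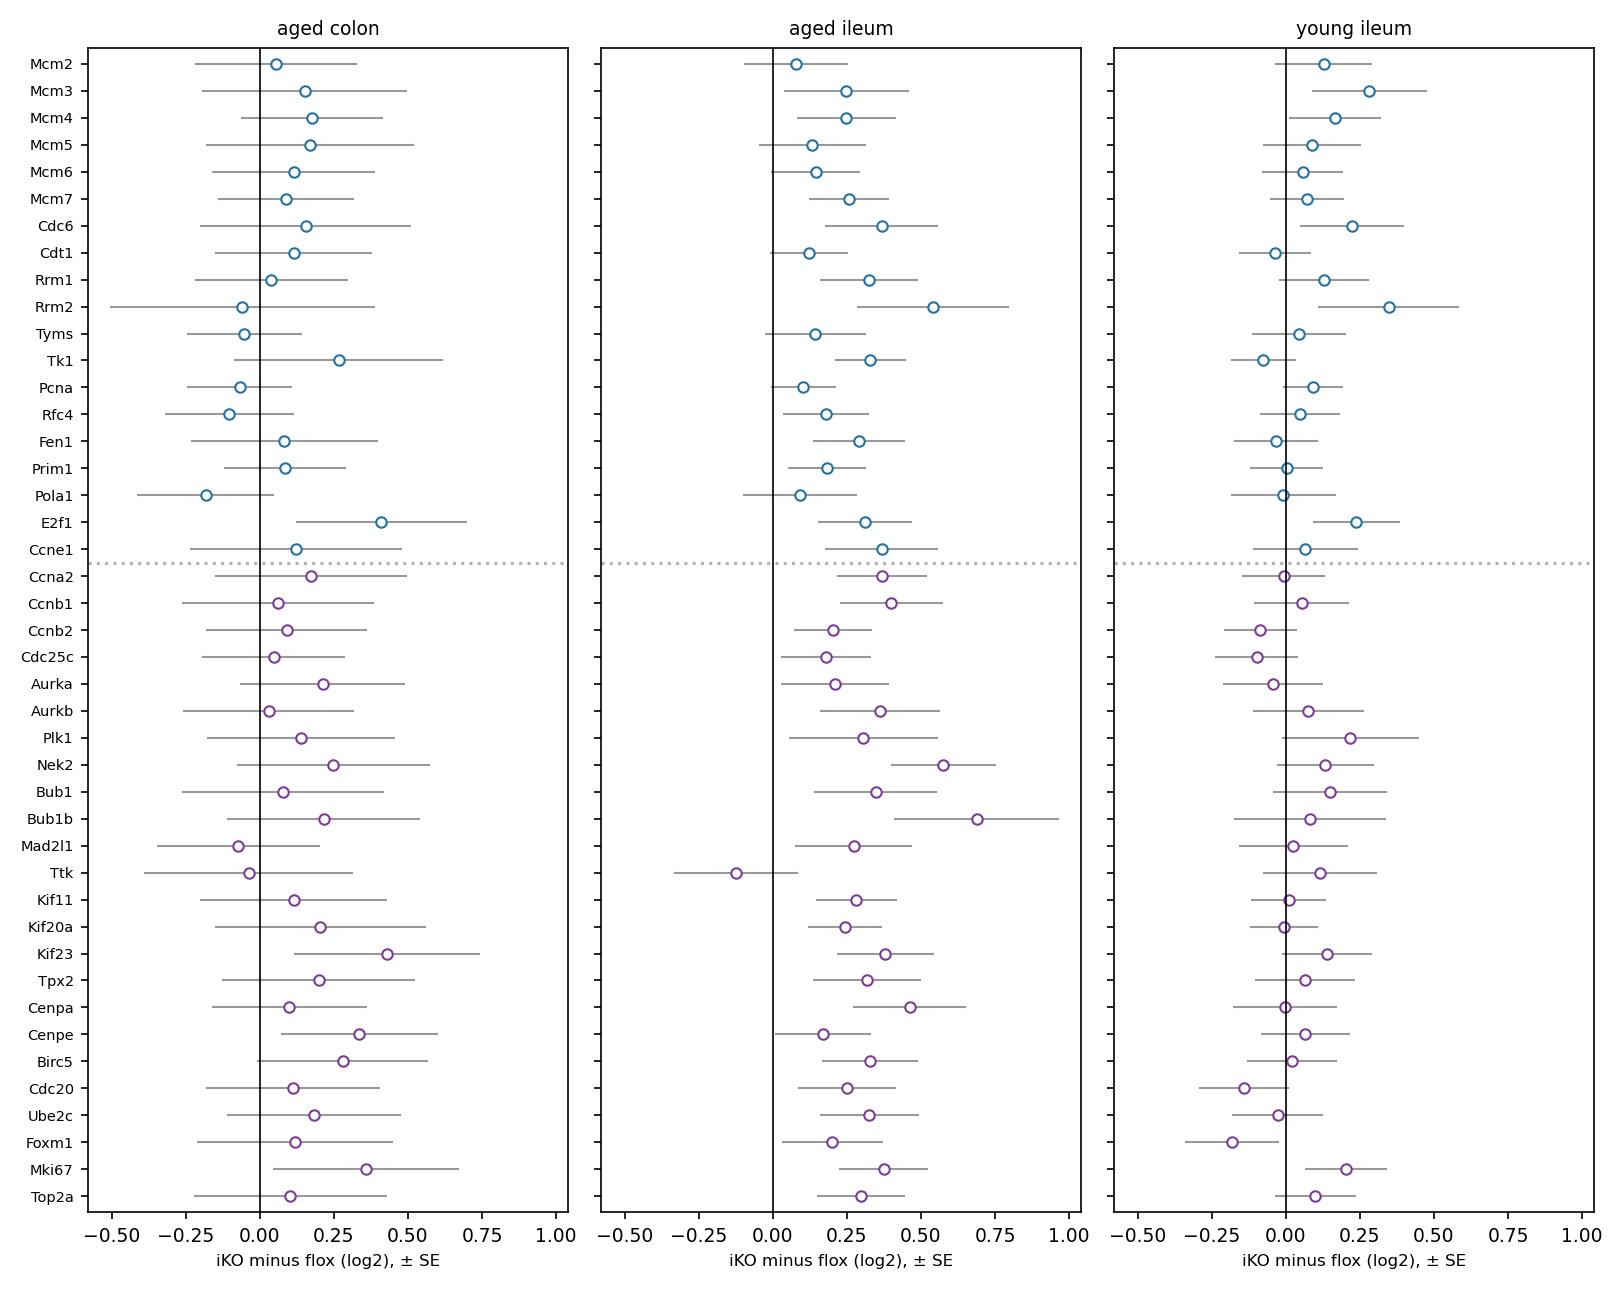
Log2 difference of iKO minus flox with its SE (horizontal axis) for the 43 members, ordered by role with replication genes in blue above the dotted line and mitosis genes in purple below it, in aged colon, aged ileum and young ileum. Open points were not called, which holds for all 129 points; in aged ileum 42 of 43 lie right of zero.

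In young ileum the same contrast gave smaller differences in mixed directions. Of the 43 members 30 were positive and 13 negative on the log2 scale, with medians of 0.07 for replication and 0.04 for mitosis genes, against 48.2% of all genes positive. None was called by limma, none had an unadjusted p under 0.05, and 0.0449% of all genes tested were called. The smallest p-values belonged to E2f1, Rrm2 and Mki67, each with an adjusted p of 0.999. With single young arrays left out the replication median ran from 0.001 (without iKO 4) to 0.17 (without iKO 1). The mitosis median was -0.04 without flox 3, with 7 of 24 genes positive, and 0.13 without flox 2, with 22 positive, so its sign rested on flox 3.

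E2f1 levels were -1.90, -1.44, -1.51 and -1.19 in young ileum iKO, against -1.67, -1.64, -1.90 and -1.77 in young ileum flox, a log2 difference of 0.24 ± 0.15. Rrm2 levels were -0.79, -0.10, -0.34 and 0.04 in young ileum iKO, against -0.34, -0.38, -1.15 and -0.72 in young ileum flox (0.35 ± 0.24). Mki67 levels were 4.02, 4.58, 4.38 and 4.36 in young ileum iKO, against 4.27, 4.13, 4.02 and 4.11 in young ileum flox (0.20 ± 0.14). For each of these genes the groups overlapped, and iKO 1 lay at or above the lowest flox value but below the other iKO arrays.

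The 4 young slides each held 1 array of each genotype and did not run the same way. The replication median within a slide was 0.22, -0.40, 0.41 and 0.13, and the mitosis median 0.20, -0.41, 0.31 and 0.11, in slide order. On the second slide, which carried iKO 1 and flox 2, 0 of 43 members were higher in iKO. Flox always lay at the first place and iKO at the second, so position and genotype cannot be told apart here. B and plasma cell markers were higher in iKO for 7 of 7 (median 0.72, none called), with a summed signal of 107 to 153 in young ileum iKO against 55.6 to 127 in young ileum flox, and iKO 4 stood at 3.44. Their part in the member differences was not tested. Of 35 other replication genes 26 were positive (median 0.04; Pola2, Pold2 and Slbp with the smallest p) and of 42 other mitosis genes 22 (median 0.01; Cenpm, Pttg1 and Hmgb2), none called by limma and none with an unadjusted p under 0.05.

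In aged colon the array-to-array spread exceeded the genotype difference. Of the 43 members 36 had a positive log2 difference, with medians of 0.09 for replication and 0.13 for mitosis genes, against 47.4% of all genes positive. None was called by limma, none had an unadjusted p under 0.05, and 0.111% of all genes tested were called. The members with the smallest p-values were E2f1 (0.41 ± 0.29), Kif23, a motor of the central spindle (0.43 ± 0.31), and Cenpe (0.34 ± 0.26), with adjusted p by limma of 0.879, 0.889 and 0.906.

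E2f1 levels were -1.52, -1.58, -2.17 and -1.98 in aged colon iKO, against -1.93, -1.86 and -2.87 in aged colon flox. Kif23 levels were -0.05, 0.23, -0.59 and -0.14 in aged colon iKO, against 0.10, -0.67 and -1.14 in aged colon flox. Cenpe levels were 2.50, 2.95, 2.13 and 2.43 in aged colon iKO, against 2.66, 2.09 and 1.75 in aged colon flox. In each, flox 4 was the lowest of the 7 arrays. Without flox 4 the medians were -0.22 (replication) and -0.10 (mitosis), with 5 of 43 members positive, and without flox 1 they were 0.30 and 0.44, with 42 positive. Without iKO 2 they were 0.02 and 0.01. Goblet cell markers were positive for 5 of 5 (median 0.42; summed linear signal 1030 to 1130 in colon iKO against 684 to 878 in colon flox). Genes listed as Paneth cell markers (Ang4, Defcr20, Guca2b, Mmp7 and Pla2g2a) were positive for 4 of 5 (median 1.36; 18.7 to 174 against 9.15 to 21.1). Whether these genes mark Paneth cells in colon was not tested. T cell markers were positive for 0 of 8 (median -0.19). No marker of these lists was called by limma, and their part in the member differences was not tested.

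Within the 3 colon slides that held both genotypes the replication median was 0.24, 0.21 and -0.38, and the mitosis median 0.07, 0.59 and -0.25. The direction thus differed between slides. Every colon flox array lay at position 3 and every colon iKO array at position 4, so position and genotype cannot be told apart in colon. Of 35 other replication genes 23 were positive (median 0.05; Dck and Uhrf1 among the smallest p) and of 42 other mitosis genes 36 (median 0.13; Cdca2, Cenpi and Kif15), none called by limma and none with an unadjusted p under 0.05.

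A single gene of the cell cycle entry list was called in this contrast. Mycn, a MYC family transcription factor, fell in colon iKO: its levels were -5.84, -5.29, -5.31 and -5.09 in aged colon iKO, against -3.23, -3.33 and -3.00 in aged colon flox. The groups were far apart and each array was well above background. The log2 difference was -2.20 ± 0.19 (adjusted p by limma = 0.0138), and the differences within the 3 slides were -2.31, -1.96 and -1.87. Genotype and position coincided on these slides. With normexp background correction it was -1.12, and the call was lost in 9 of 20 alternatives, among them with each flox array left out (adjusted p by limma = 0.0598 to 0.0777), without iKO 2 or iKO 3, without the slide of flox 4 and iKO 3, with the mean over probes and with the slide as a fixed factor. With the replicate number as a block it was -2.23 (adjusted p by limma = 0.182). In aged ileum Mycn levels were -4.55, -4.25, -5.37 and -4.06 in iKO, against -4.01, -2.43 and -2.89 in flox, not called, with 1 of 4 iKO and 2 of 3 flox arrays well above background.

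**Figure D3:**
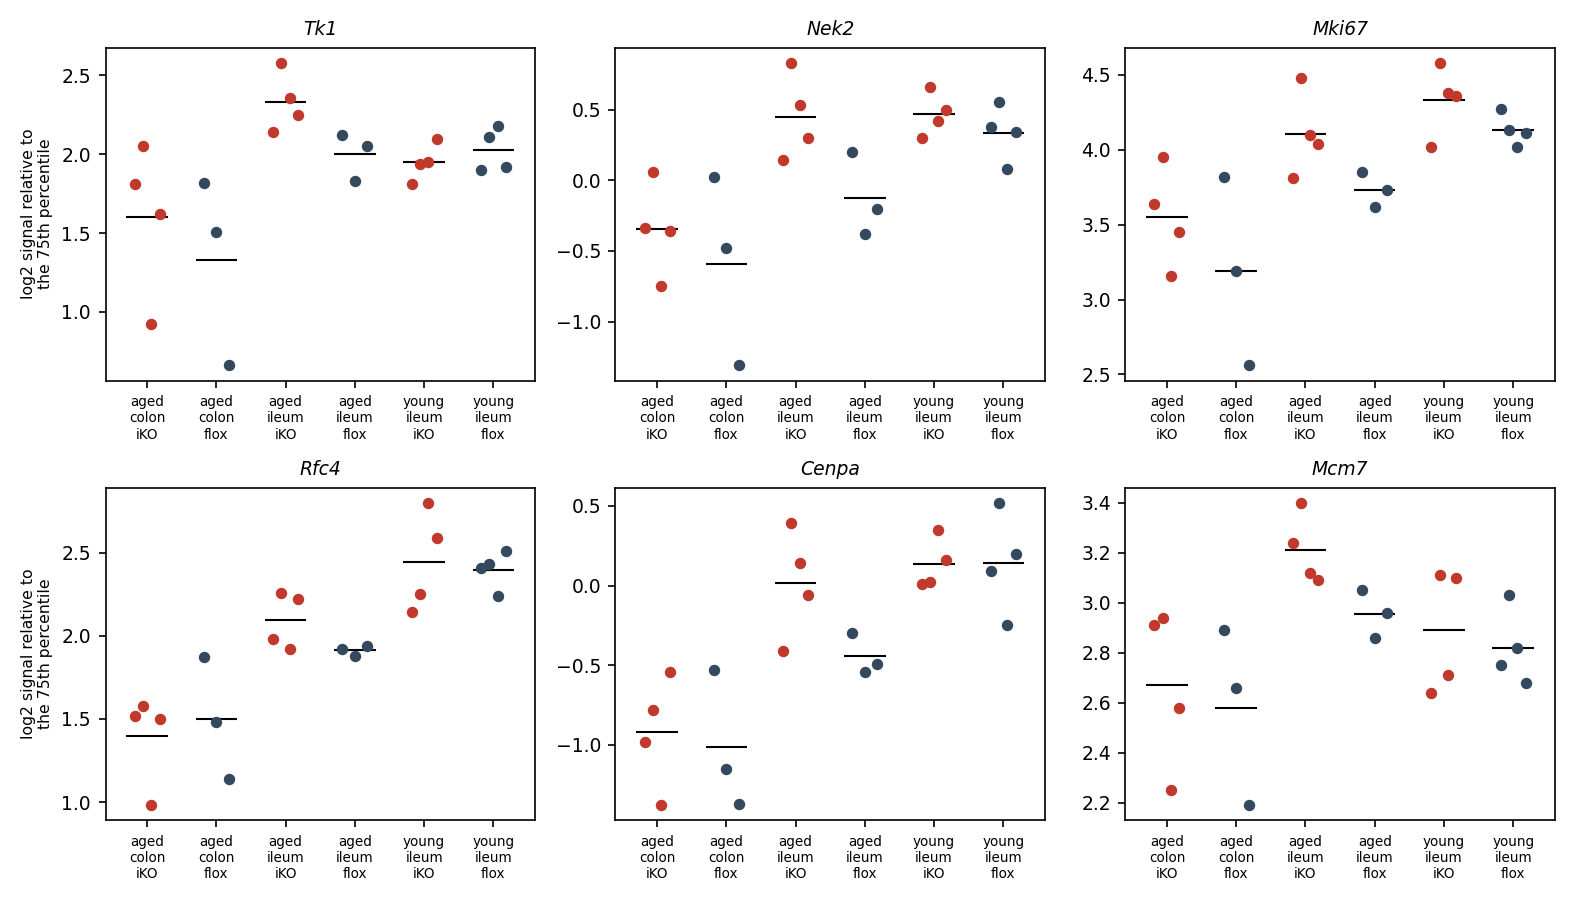
Levels of 6 members (log2 signal relative to the 75th percentile of the array, vertical axis) on each of the 22 arrays by group, iKO in red and flox in dark points, with lines at group means. The vertical axes differ between panels. Tk1 and Mcm7 stand higher in aged ileum iKO than in aged ileum flox without overlap, and Rfc4 and Cenpa stand lower in aged than in young ileum flox without overlap.

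The next comparison set aged against young ileum within each genotype. In flox mice mitosis genes leaned lower with age, 20 of 24 with a median log2 difference of -0.40, while replication genes split into 8 positive and 11 negative (median -0.05), against 47% of all genes positive. The difference between the classes was not tested. None of the 43 was called by limma, 13 had an unadjusted p under 0.05, and 8.55% of all genes tested were called. Leaving out young iKO 1 gave 2 member calls, and leaving out aged iKO 2, young flox 3, young iKO 3 or young iKO 4 gave 1. Calls over all genes in these settings ran from 848 of 15625 (without young flox 3) to 1437 of 15613 (without young iKO 3). Without the arrays high in colon identity markers there was 1 member call, Nek2, which fell with age, and the medians were -0.09 and -0.43. In that setting 587 of all 15858 genes tested were called. Without aged flox 3 the replication median was 0.07, with 14 of 19 genes positive, so its sign rested on that array.

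Rfc4 levels were 1.92, 1.88 and 1.94 in aged ileum flox, against 2.41, 2.43, 2.24 and 2.51 in young ileum flox. The groups stood apart and the log2 difference was -0.48 ± 0.15 (adjusted p by limma = 0.0551). Cenpa levels were -0.30, -0.54 and -0.49 in aged ileum flox, against 0.09, 0.52, -0.25 and 0.20 in young ileum flox, a difference of -0.58 ± 0.19 (adjusted p by limma = 0.0720). With the mean over both Cenpa probes, 1 of them near background, that difference was 0.39. Ube2c levels were 1.79, 1.47 and 1.82 in aged ileum flox, against 2.25, 2.46, 2.04 and 2.05 in young ileum flox (-0.51 ± 0.17, adjusted p by limma = 0.0739).

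The groups did not overlap for 15 members that stood lower in aged flox ileum, 12 of them mitosis genes: Birc5, Ccna2, Ccnb1, Cdc20, Cdc25c, Cenpa, Kif11, Kif20a, Kif23, Mad2l1, Mki67 and Ube2c. The replication genes among them were Rfc4, Pola1 and Tyms, which encodes thymidylate synthase. Of all genes tested 15.4% were lower without overlap. Mcm3 alone stood higher without overlap, as did 1438 of all 15588 genes tested. By role, 5 of the 6 MCM genes were positive (-0.08 to 0.32), as were both licensing factors (0.16 and 0.26), and all 4 genes of nucleotide supply were negative (-0.35 to -0.02).

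Slides did not repeat this evenly. On the slide with aged flox 3 and young flox 2 the medians were -0.39 (replication) and -0.77 (mitosis), and on the slide with aged flox 1 and 4 and young flox 3 they were 0.14 and -0.07. Young flox 2 was the highest array of its group. On each slide the aged arrays lay at later positions (3 and 4) than the young ones (1 and 2), so age and place cannot be told apart.

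In iKO mice 1 member was called, Tk1, which rose with age. Its levels were 2.14, 2.58, 2.36 and 2.25 in aged ileum iKO, against 1.81, 1.94, 1.95 and 2.10 in young ileum iKO. The groups stood apart, and the log2 difference was 0.38 ± 0.11 (1.30-fold; adjusted p by limma = 0.0438). Within the slides it was 0.42, 0.77 and 0.24. Among all genes tested 10.7% were called in either direction and 5.14% called higher, so 1 of 43 was under the share of all genes. The call was kept in 15 of 30 alternatives, with adjusted p from 0.0208 to 0.119, and lost without aged iKO 2, 3 or 4, without young iKO 1, 2 or 3, without aged flox 1 or 4 or young flox 1 or 4, and without the 3 ileum arrays highest in B and plasma cell markers (0.57, adjusted p by limma = 0.0726). Without the arrays high in colon identity markers the difference was 0.30 (adjusted p by limma = 0.109) and no member was called. It was also lost with the mean over probes, with no filter on dim probes and with the iKO ileum arrays alone. Without young flox 2 or young iKO 1 there were 2 member calls, where 1738 of 15624 and 1756 of 15622 genes tested were called.

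Fen1 and Pola1 had the next smallest p-values and were not called. Fen1 levels were 0.99, 1.30, 0.97 and 1.07 in aged ileum iKO, against 0.59, 0.56, 0.61 and 0.91 in young ileum iKO (0.41 ± 0.14, adjusted p by limma = 0.0786). Pola1 levels were -0.43, -0.13, -0.36 and -0.16 in aged ileum iKO, against -0.33, 0.30, 0.16 and 0.70 in young ileum iKO (-0.47 ± 0.18, adjusted p by limma = 0.104). Fen1 thus stood higher on every aged array and Pola1 overlapped.

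Over the lists in iKO ileum, 13 of 19 replication genes were positive (median 0.17) and 16 of 24 mitosis genes negative (median -0.05), against 47.9% of all genes positive. All 6 MCM genes were positive (0.01 to 0.34), and Foxm1, the transcription factor of mitotic genes, Top2a, topoisomerase II alpha, and Aurkb, the kinase of the passenger complex, had 0.38 ± 0.16, 0.31 ± 0.14 and 0.41 ± 0.19. The mitosis median was 0.14 without the arrays highest in B and plasma cell markers, so its sign depended on them. It was 0.02 without aged iKO 1 and -0.12 without young iKO 1. Without the arrays high in colon identity markers it was -0.18, with 5 of 24 genes positive, and the replication median 0.09. Within the 3 slides that held both ages of iKO ileum it was -0.16, 0.51 and -0.21.

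**Figure D4:**
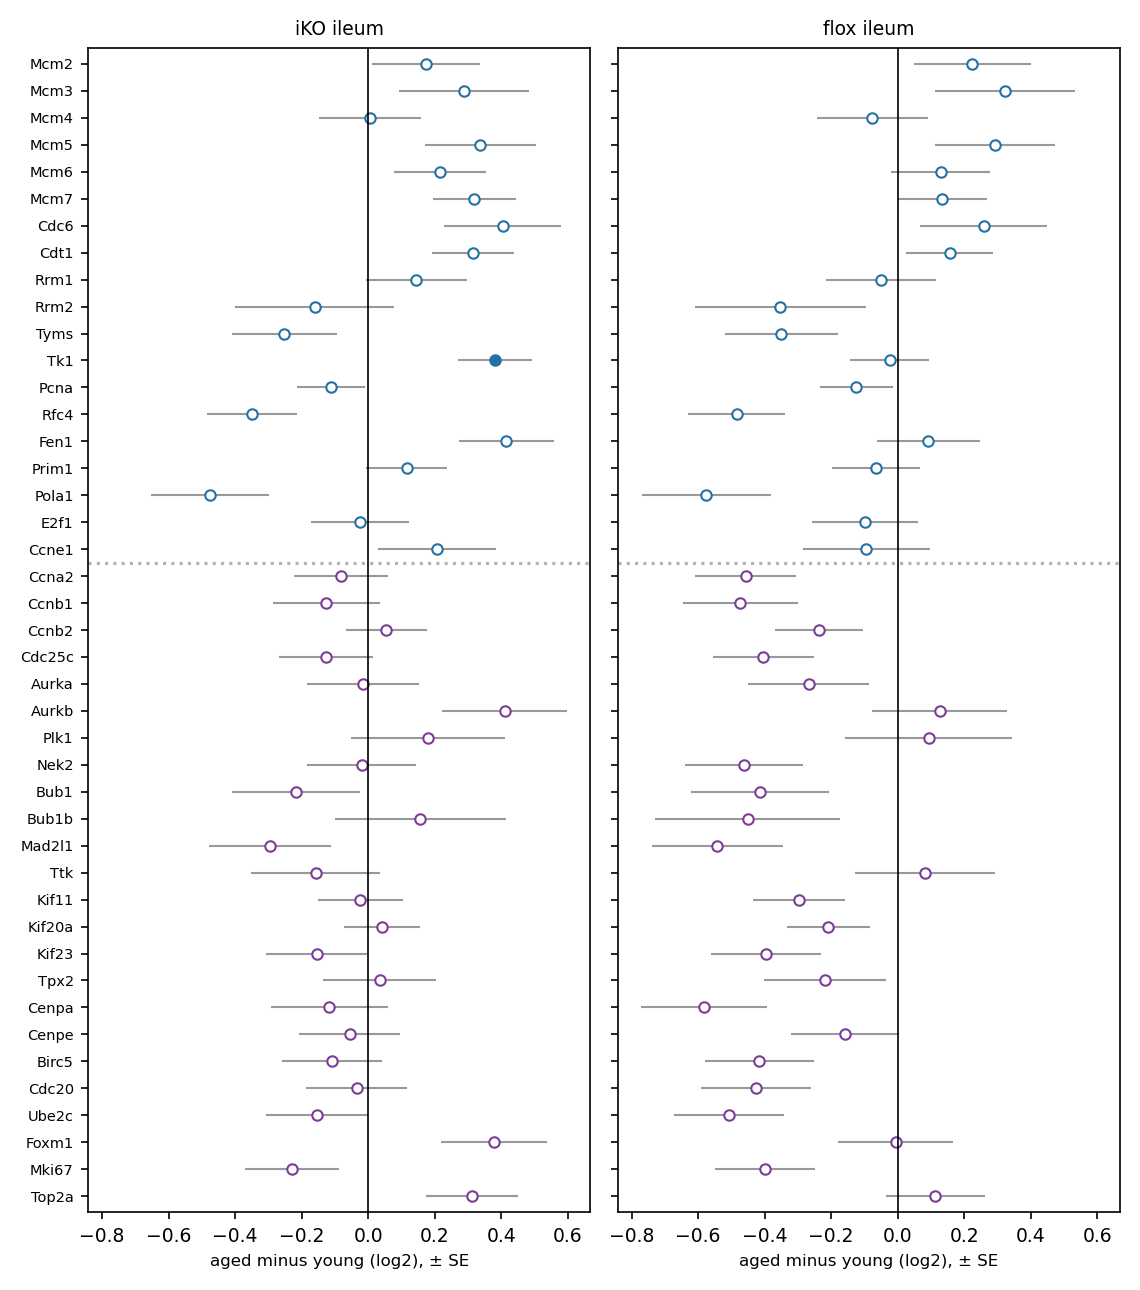
Log2 difference of aged minus young ileum with its SE (horizontal axis) for the 43 members in iKO mice at left and flox mice at right, replication genes in blue above the dotted line and mitosis genes in purple below it. The filled point is Tk1 in iKO ileum, the called member, at 0.38; in flox ileum 20 of 24 mitosis genes lie left of zero.

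The difference between the ageing contrasts of iKO and flox mice was tested as the genotype by age term. It was positive on the log2 scale for 40 of 43 members (medians 0.13 for replication and 0.27 for mitosis genes), against 53.6% of all genes. None was called by limma, 1 had an unadjusted p under 0.05 (Tk1), and 0% of all genes tested were called. Tk1 had 0.41 ± 0.16, Nek2 0.44 ± 0.24 and Ccna2, which encodes cyclin A2, 0.38 ± 0.21, each with an adjusted p of 1. With single arrays left out the replication median ran from 0.015 (without young iKO 1, 10 of 19 genes positive) to 0.21, and was 0.02 without aged flox 3 and 0.055 without aged iKO 2. The mitosis median ran from 0.17 (without aged iKO 2) to 0.36, and without the arrays high in colon identity markers the medians were 0.12 and 0.22. Fibroblast and matrix markers were negative for 10 of 10 (median -0.49) and smooth muscle markers for 9 of 9 (median -0.25), none called, and their part in the term was not tested. Ccna2 levels were 2.46, 3.10, 2.72 and 2.72 in aged ileum iKO and 2.55, 2.12 and 2.47 in aged ileum flox, and 2.61, 2.98, 2.94 and 2.79 in young ileum iKO and 2.92, 2.98, 2.66 and 2.79 in young ileum flox. The lowest of the 15 arrays was an aged flox array and the highest an aged iKO array. The ileum contrasts share their arrays, so none of them is independent of the others.

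Genes around the members changed with age in both genotypes. Cdkn1a, the inhibitor p21 that halts the cycle, fell: its levels were 2.04, 1.91, 1.75 and 1.86 in aged ileum iKO, against 2.98, 2.48, 2.57 and 2.49 in young ileum iKO, and 1.62, 1.91 and 1.93 in aged ileum flox, against 2.89, 2.64, 2.85 and 2.74 in young ileum flox. The aged and young arrays did not overlap in either genotype, with log2 differences of -0.74 ± 0.12 in iKO and -0.96 ± 0.13 in flox (adjusted p by limma = 0.00298 and 0.000953). The genotype by age term was 0.22 ± 0.18 (adjusted p by limma = 1).

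Of the 31 genes of cell cycle entry and its brakes, 5 fell with age in iKO ileum and 5 in flox ileum. Of all genes tested 5.57% fell in iKO and 5.36% in flox. In iKO these were Cdkn1a, Cdkn1c, the inhibitor p57 (-1.39 ± 0.27), Ccne2, cyclin E2 (-0.94 ± 0.19), E2f5 (-0.39 ± 0.09) and Max, the partner of MYC (-0.44 ± 0.13), with adjusted p by limma of 0.00298 to 0.0435. In flox they were Cdkn1a, Max (-0.61 ± 0.14), Ccne2 (-0.82 ± 0.21), Lin9, a subunit of MuvB (-0.44 ± 0.13), and Cdkn1c (-0.99 ± 0.29), with adjusted p by limma of 0.000953 to 0.0487. None of the list rose by the test in either genotype. Without the arrays high in colon identity markers Ccne2, Cdkn1a, Cdkn1c, E2f5 and Mycn were called lower in iKO, and in flox Cdkn1a was called lower and Rbl2 higher.

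Of 42 other mitosis genes 3 fell in iKO ileum, near the 5.57% of all genes, and 7 in flox ileum, where 5.36% of all genes fell, and none rose. Without the arrays high in colon identity markers 4 fell in each (Hmmr, Kifc1 and Lmnb1 in both, Cks2 in iKO and Nusap1 in flox). Kifc1, a minus-end kinesin, had the largest difference, -3.95 ± 0.20 in iKO and -4.31 ± 0.21 in flox (adjusted p by limma = 4.94e-08 and 5.09e-08), with 2 of 4 aged iKO and 1 of 3 aged flox arrays well above background. Kifc1 has a near-identical copy, Kifc5b, and the probe may read both, so this value is uncertain. Lmnb1, lamin B1 of the nuclear envelope, fell by 1.30 in iKO and by 1.87 in flox on the log2 scale (SE 0.14 and 0.16; adjusted p by limma = 0.000137 and 1.05e-05). Hmmr, a spindle factor, was called in both, and Nusap1, Aspm, Kif15 and Smc2 in flox; with the mean over its probes Aspm had 0.01 in place of -0.84. Of 35 other replication genes Gmnn, geminin, which blocks licensing, fell in both (-0.39 ± 0.11 in iKO and -0.45 ± 0.12 in flox). Pole, polymerase epsilon, rose in iKO (0.55 ± 0.11, adjusted p by limma = 0.0110) and Dbf4, the activator of the kinase Cdc7, fell in flox (-0.54 ± 0.15). Among 13 crypt stem cell markers 1 was called, Sox9, which rose in both (0.43 ± 0.12 in iKO and 0.47 ± 0.13 in flox). The calls of Gmnn in flox and of Sox9 in both were lost without the arrays high in colon identity markers (adjusted p by limma = 0.0858, 0.103 and 0.0927). Of 11 enterocyte markers 9 were lower with age in iKO (median -0.30, none called) and 11 in flox (median -0.15, 1 called). Without the arrays high in colon identity markers the medians were -0.06 in iKO and 0.10 in flox, so the direction in flox depended on those arrays. Of 6 epithelial identity markers 0 were higher with age in either genotype (medians -0.23 in iKO and -0.20 in flox), with 2 called lower in iKO and 1 in flox. Without those arrays 0 were higher in iKO and 1 in flox (medians -0.21 and -0.16), with 1 called lower in each. Of 10 fibroblast and matrix markers 8 were lower in iKO (2 called) and 5 in flox, where 2 were called higher. B and plasma cell markers were higher for 6 of 7 in iKO (median 0.18) and 7 of 7 in flox (median 0.48), none called. The part of any of these cells in the member differences was not tested.

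The last pair of comparisons used the aged mice of both tissues. In flox mice 42 of 43 members stood lower in colon than in ileum on the log2 scale (medians -0.43 for replication and -0.62 for mitosis genes), while 56.9% of all genes were higher in colon. By limma 10 members fell in colon and none rose. Of all genes tested 32.8% were called, 13.7% as lower in colon. Tissue coincided with slide and scan run, so tissue and array run cannot be told apart.

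The called replication genes were Cdt1, Mcm4, Mcm5, Mcm6, Prim1 and Fen1. Cdt1 levels were 2.61, 2.29 and 1.52 in aged colon flox, against 2.96, 3.09 and 2.82 in aged ileum flox, a log2 difference of -0.82 ± 0.23 (adjusted p by limma = 0.0184). Mcm4 levels were 2.54, 2.15 and 1.59 in colon, against 2.92, 2.60 and 2.78 in ileum (-0.67 ± 0.21, adjusted p by limma = 0.0318). In both genes every colon array lay below every ileum array.
Mcm5 levels were 1.82, 1.44 and 0.46 in aged colon flox, against 2.35, 1.96 and 2.11 in aged ileum flox (-0.90 ± 0.30). Mcm6 levels were 4.36, 4.17 and 3.43 in colon, against 4.78, 4.50 and 4.67 in ileum (-0.67 ± 0.24). The MCM genes that were not called, Mcm2, Mcm3 and Mcm7, had -0.19 ± 0.24, -0.45 ± 0.30 and -0.37 ± 0.20. Prim1 levels were 1.69, 1.42 and 1.12 in colon, against 2.02, 1.82 and 2.09 in ileum (-0.56 ± 0.19), and Fen1 levels 0.41, 0.16 and -0.62 in colon, against 1.04, 0.60 and 0.74 in ileum (-0.81 ± 0.28). The groups did not overlap in any of these genes, and flox 4 was the lowest colon array in each.

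The called mitosis genes were Birc5, Plk1, Foxm1 and Top2a. Birc5 levels were 3.59, 3.03 and 2.57 in aged colon flox, against 4.13, 3.78 and 4.06 in aged ileum flox (-0.93 ± 0.28, adjusted p by limma = 0.0238). Plk1, a kinase of mitotic entry and exit, had 1.90, 1.31 and 0.64 in colon, against 2.38, 2.02 and 2.29 in ileum (-0.95 ± 0.30, adjusted p by limma = 0.0295). Both genes showed the same order of colon arrays.
Foxm1 levels were -0.72, -1.48 and -1.93 in aged colon flox, against -0.18, -0.59 and -0.38 in aged ileum flox (-0.99 ± 0.32, adjusted p by limma = 0.0306). Top2a levels were 0.06, -0.50 and -0.84 in colon, against 0.53, 0.23 and 0.42 in ileum (-0.82 ± 0.29, adjusted p by limma = 0.0457). No colon array reached the ileum range in either gene.

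The genes of nucleotide supply had log2 differences of -0.67 for Tk1, -0.22 for Rrm1, -0.07 for Tyms and -0.02 for Rrm2, none called. Bub1b was the member with a positive difference (0.05 ± 0.39), and in ileum its flox 4 array was the low one. The groups did not overlap, colon lower, for 18 members, 8 of replication and 10 of mitosis. Of all genes tested 18% were lower without overlap.

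These counts hung on few arrays. Without colon flox 4 no member was called and the medians were -0.18 (replication) and -0.38 (mitosis). Without colon flox 1 there were 23 calls, without colon flox 3, ileum flox 1 or ileum flox 4 there was 1 call in each, and without ileum flox 3 there were 5. Calls over all genes, in either direction, were 5702 of 19904 without colon flox 1 and 5087 of 19847 without colon flox 4. They were 5607 of 20565 without colon flox 3, 6015 of 19847 without ileum flox 1 and 4919 of 19832 without ileum flox 4. Without ileum flox 3 they were 5220 of 19826. Without the ileum arrays high in colon identity markers no member was called, and the medians were -0.35 (replication) and -0.58 (mitosis), with 40 of 43 members lower in colon. Without colon iKO 4 or ileum iKO 4, which enter only through the shared spread, there were 6 member calls (6299 of 19881 and 6181 of 19811 genes called). Fitted to the flox arrays of both tissues alone, limma called 0 members and 4622 of all 19290 genes tested. Both medians were negative in every alternative run, from -0.70 to -0.18 for replication and from -0.87 to -0.38 for mitosis genes.

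Of the other genes, 9 of 35 replication genes and 6 of 42 mitosis genes fell in colon flox and none rose. Of all genes tested 13.7% fell, so the share of these mitosis genes was near that of all genes. Without the ileum arrays high in colon identity markers 5 replication genes and no mitosis gene were called. Mcm10, a factor that helps start the helicase, had -1.34 ± 0.26, Lig1, the ligase of the lagging strand, -0.72 ± 0.17, and Kif22, a chromosome motor, -0.97 ± 0.32 (adjusted p by limma = 0.00256, 0.00641 and 0.0329). Others called were Gins1, Pold1, Pold2, Prim2, Rfc5, Chaf1a, Mybl2, Cdca8, Cks1b, Cdca5 and Trip13. Of 32 genes of cell cycle entry and its brakes 5 fell (Cdkn2b, Rb1, Ccnd1, Fzr1 and Cdc25a) and 2 rose (Cdkn1c and Btg1). Of all 19809 genes tested 6503 were called, 2717 of them lower and the rest higher. The 5 that fell were thus near the share of all genes, and the 2 that rose were under the share of all genes that rose. Markers of cell types differed between the tissues too. All 11 enterocyte markers were called lower in colon, and all 9 smooth muscle markers had positive differences (3 called). Of 13 crypt stem cell markers 4 rose and 5 fell, among them Lgr5 (-1.36 ± 0.20) and Olfm4. Olfm4 was at least 85-fold lower in colon, where it was not well above background on any flox array. Numbers of cells and RNA per cell cannot be told apart in these values. The part of these cells in the member differences was not tested.

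**Figure D5:**
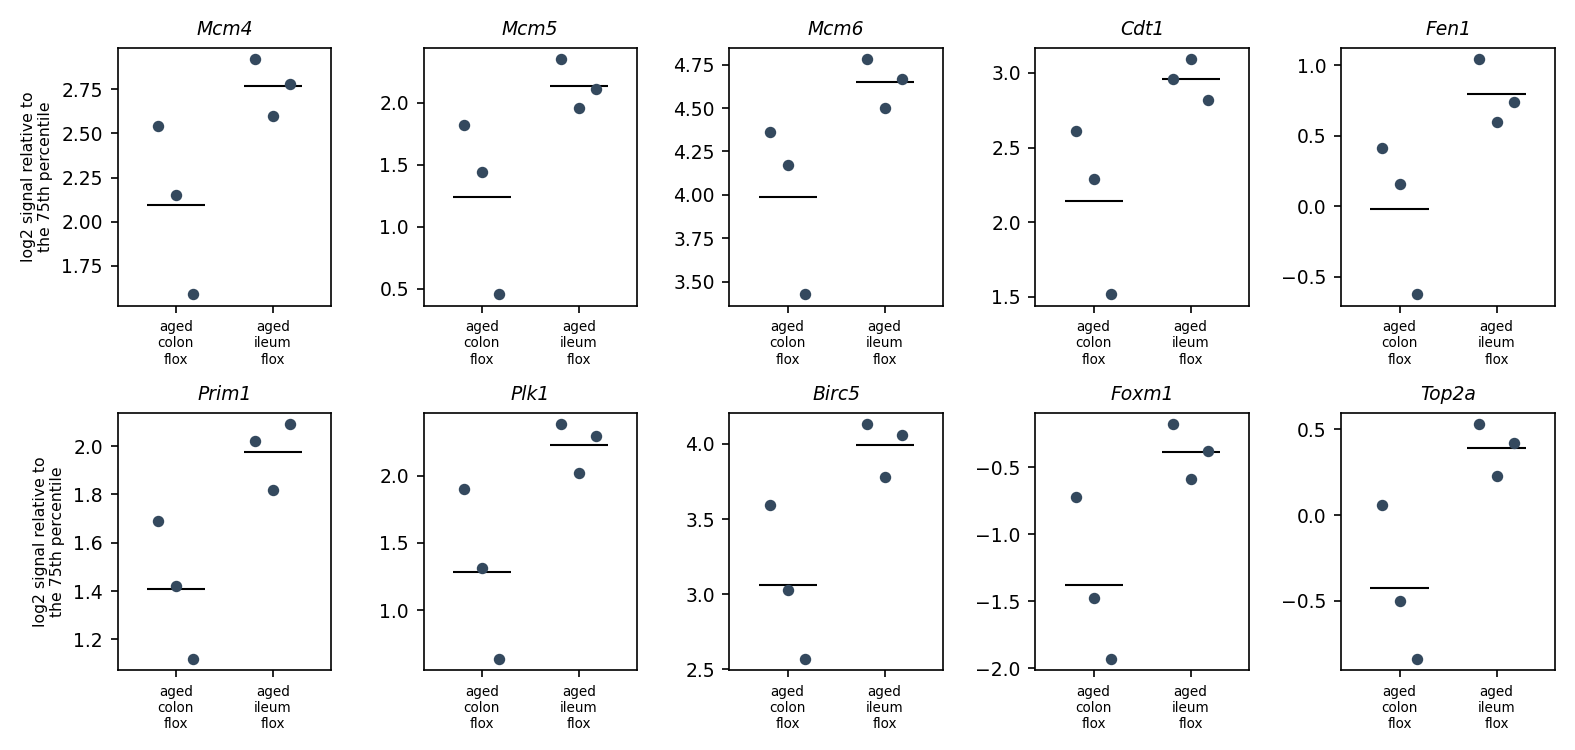
Levels of the 10 members called lower in aged colon flox than in aged ileum flox (log2 signal relative to the 75th percentile of the array, vertical axis), with points for the 3 arrays of each group in replicate order and lines for group means. The vertical axes differ between panels. In each panel the rightmost colon point, flox 4, is the lowest array.

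Whether the genotype difference depended on tissue was tested as the genotype by tissue term in aged mice. It was negative for 37 of 43 members on the log2 scale (medians -0.17 for replication and -0.14 for mitosis genes), against 45.7% of all genes positive. None was called by limma, none had an unadjusted p under 0.05, and 0.0353% of all genes tested were called. The members with the smallest p-values were Rfc4 (-0.28 ± 0.26), Rrm2 (-0.60 ± 0.55) and Cenpa (-0.36 ± 0.34), with adjusted p by limma of 0.863 to 0.869. With the mean over both Cenpa probes its term was 0.35.

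Rrm2 levels were -0.55, -0.94, -1.41 and -1.42 in aged colon iKO and -0.33, -0.62 and -2.11 in aged colon flox, and -0.78, -0.04, -0.59 and -0.44 in aged ileum iKO and -0.58, -1.38 and -1.04 in aged ileum flox. Of these 14 arrays colon flox 4 was the lowest and ileum iKO 2 the highest. Without colon flox 1 the medians of the term were 0.08 and 0.13, and without colon iKO 3 they were 0.005 and 0.05, so its sign rested on these arrays. They were -0.07 and -0.02 without ileum iKO 2, -0.05 and -0.06 without ileum flox 3, and -0.36 and -0.38 without colon flox 4. Without the ileum arrays high in colon identity markers they were -0.11 and -0.07, with 32 of 43 members negative. Fibroblast and matrix markers were positive for 10 of 10 (median 0.47), smooth muscle markers for 9 of 9 (0.25), goblet cell markers for 5 of 5 (0.61) and fat and pancreas markers for 8 of 8 (1.62), none called, and their part in the term was not tested. Of the other lists, 26 of 35 replication genes and 30 of 42 mitosis genes were negative and none was called or had an unadjusted p under 0.05.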

How the data were processed

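RNA of 22 samples was labelled with Cy3 and hybridised to 1-colour arrays. The deposited scanner files, made with Agilent Feature Extraction 9.5 per the submitters' processing notes, hold background-subtracted and detrended intensity per spot (per the file headers), with no normalization between arrays. Control spots were left out. Spots flagged as outliers were left out where the probe had an unflagged spot on that array, and kept where every spot of the probe was flagged. Here the deposited intensity was set on a log2 scale relative to the 75th percentile of its array, and repeated spots were averaged. Each gene name was read from its brightest probe, and genes entered a fit if some group of it had them well above background on all its arrays.

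Groups came from the labels. Limma 3.58.1 (R 4.3.3; lmFit and eBayes) was fitted to the 15 ileum, the 7 colon and the 14 aged arrays, with Benjamini-Hochberg adjustment over all genes tested and a threshold of 0.05, after tests on simulated data. Promoters came from RefSeq (GRCm38.p6); the array's design names the mm7 build, and no coordinates were carried between them. Named genes were those called in a comparison or, where fewer than 3 members were called, the 3 with the smallest p, and likewise the called genes or first 3 of the other lists. Some genes that this rule would name are not reported here. The members and lists were chosen with earlier results of these data known. Alternatives changed the background correction, scaling, filter, probes per gene, model and arrays, 1 at a time; leaving out the arrays high in B and plasma cell markers, those high in colon identity markers and those of the lowest colon slide was chosen after seeing the data. The labels do not say what the replicate number marks, so the numbers were not taken to pair samples. Deviations of same-numbered arrays from their group means correlated by -0.36 to 0.37. Differently numbered arrays were not set beside them, so these values cannot decide whether the numbers pair samples. The number of arrays limits the precision. The deposited series table was not used.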

Additional observations from a re-analysis of the deposited data

Results flagged for a closer look

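In 104 checks of single arrays within groups of 4, an array stood apart from the others of its group in 5, with a gap to the nearest array, as a share of the group's range, above Dixon's critical value at the 95% level. Chance gives about 5% of such checks. Fen1, the flap nuclease, was highest on young ileum iKO 4 (0.91 against 0.61 for the nearest array, a share of 0.866). Kif23, the motor of the central spindle, was highest on young ileum iKO 2 (1.05 against 0.58, a share of 0.887). Rfc4, of the clamp loader, was lowest on aged colon iKO 3 (0.98 against 1.5, a share of 0.868). The median of B and plasma cell markers, centred within the ileum, was highest on young ileum iKO 4 (3.44 against -0.52, a share of 0.946) and lowest on young ileum flox 3 (-1.27 against -0.50, a share of 0.881).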

How the results depend on the processing

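Of 678 alternative values of list medians and member counts, 636 stayed close to the reported value. Close meant a median shift under the SD of the per-array list median within groups, or a count within a factor of 1.5. In colon this SD was wide enough that a median could change sign and still count as close. Leaving out an array outside a contrast can hardly move its median, so this share does not measure how stable the results are. Member calls in flox ageing (0 reported) were 15 with array weights, where 4844 of all 15588 genes tested were called. They were 1 each with normexp background, the stricter filter, trend and robust fitting or the contrast's groups alone. With single arrays left out they were 0 to 2. In iKO ageing (1 reported) they were 0 with the mean over probes, no filter, the contrast's groups alone or without the 3 arrays high in B and plasma cell markers, and 0 to 2 with single arrays left out. In colon against ileum (10 reported) they were 18 with array weights, where 7580 of all 19809 genes tested were called. They were 0 with the contrast's groups alone (4622 of 19290 genes called) and 3 without the lowest colon slide (4924 of 19908). With single arrays left out they were 0 to 23. In aged ileum iKO against flox (0 reported) array weights gave 8, where 2822 of all 15588 genes tested were called. Without the 2 ileum arrays high in colon identity markers, added after seeing the data, member calls were 1 in flox ageing, 0 in iKO ageing and 0 in colon against ileum, and calls over all genes were 587, 1087 and 6063, and 42 in aged ileum. The genotype by tissue medians were -0.55 (replication) and -0.66 (mitosis) with the slide as a fixed factor. With the mean over probes the difference was 0.007 for Aspm and 0.39 for Cenpa in flox ageing, and 0.35 for Cenpa in genotype by tissue. The replicate block gave medians of 0.17 and 0.23 in aged ileum iKO against flox and 13 member calls in colon against ileum, and changed the call of Mycn in colon (-2.23, adjusted p by limma = 0.182). Over all genes it gave 1 call against 22 reported in colon iKO against flox, 16 against 26 in aged ileum and 3 against 7 in genotype by tissue. In colon against ileum it gave 5979 against 6503. Calls over all genes ranged, over all settings, from 395 to 4844 in flox ageing (1333 reported), 232 to 2304 in iKO ageing (1669), 4622 to 10966 in colon against ileum (6503), 5 to 2822 in aged ileum (26), 1 to 48 in colon (22), 3 to 14 in young ileum (7), 2 to 12 in genotype by tissue (7) and 0 to 4 in genotype by age (0). The cause of these shifts was not tested. The slide as a fixed factor could not be fitted for colon against ileum.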
